A study of Saccharomyces cerevisiae with 8 samples.

Results

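Expression of the Malaysian allele was compared with that of the wine/European allele of the same gene inside 3 diploid hybrids of the budding yeast *Saccharomyces cerevisiae*. The comparison covered 5738 of the 5797 genes in the table, those with a mean normalized value of at least 10 over the 6 allele columns. YHL058 was a cross of the Malaysian isolate UWOPS03.461.4 with RM11-1b, YHL063 a cross of UWOPS03.461.4 with BC187, and YHL065 a cross of UWOPS05.217.3 with BC187, where RM11-1b and BC187 are wine/European strains. YHL058 and YHL063 thus shared their Malaysian parent, and YHL063 and YHL065 their wine/European parent. All 3 were MATa/α diploids labelled HO, and the strain list of the study gives YHL058 as heterozygous for an *HO* deletion and RM11-1b as a *lys2 ura3* strain. Each hybrid was 1 culture, grown to mid-log phase at 30° in YPD, a rich glucose medium, and 1 poly-A-selected library. The replicates are these 3 crosses, and the spread between them holds differences between strains as well as technical error. The other 5 of the 8 samples were parental isolates (UWOPS05.227.2, UWOPS05.217.3 and UWOPS03.461.4 from Malaysia, BC187 and RM11-1 from the wine/European population), used here only to set a parental value beside an allelic one.

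A hybrid holds both parental copies of a gene in the same nucleus, where they meet the same transcription factors, metabolites and growth state. A difference that acts in *trans*, through a diffusible product, reaches both copies, whereas a difference in *cis* lies on the copy itself, in its promoter, its transcript or the sequence nearby. Allele-specific expression is therefore the usual measure of *cis*-regulatory divergence in yeast. Genes for nutrient transport, the cell wall and chromosome ends are known as some of the most variable between yeast populations, and genes for core housekeeping functions as some of the least.

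The promoters of 4 genes with large ratios show the kind of sequence that lies in *cis* to these alleles. Each runs from 250 bases before the start codon to 50 bases after the first base of it (300 bases, 5′ to 3′ on the strand of the gene), and is that of the reference strain S288C (assembly R64, RefSeq), not that of a parent of the hybrids. *AQY1* encodes a water channel and was higher from the Malaysian allele. *SNF3* encodes a sensor of low glucose and was also higher from it. *GNP1* encodes a glutamine permease and *ZRT1* the high-affinity zinc transporter, and both were lower from it. Capitals mark the start codon and matches to TATAAA on either strand. TATAAA is 1 form of a TATA box, and other forms were not searched and are not marked. In *ZRT1*, capitals also mark ACCTT and AAGGT separated by 1 base, the known site of the zinc-responsive activator Zap1p.
*AQY1* (chrXVI:921610-921909, plus strand): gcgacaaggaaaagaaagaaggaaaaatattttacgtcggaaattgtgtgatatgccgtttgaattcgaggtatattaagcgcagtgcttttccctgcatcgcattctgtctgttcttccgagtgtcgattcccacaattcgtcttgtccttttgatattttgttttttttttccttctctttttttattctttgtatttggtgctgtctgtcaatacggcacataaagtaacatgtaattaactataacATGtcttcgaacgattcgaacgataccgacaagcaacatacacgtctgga
*SNF3* (chrIV:111330-111629, plus strand): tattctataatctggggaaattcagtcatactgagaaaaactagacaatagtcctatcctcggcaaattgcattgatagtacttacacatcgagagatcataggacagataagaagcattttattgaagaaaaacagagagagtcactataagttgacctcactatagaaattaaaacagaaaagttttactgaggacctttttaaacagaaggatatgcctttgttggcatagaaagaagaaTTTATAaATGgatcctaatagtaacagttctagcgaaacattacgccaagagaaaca
*GNP1* (chrIV:1468395-1468694, minus strand): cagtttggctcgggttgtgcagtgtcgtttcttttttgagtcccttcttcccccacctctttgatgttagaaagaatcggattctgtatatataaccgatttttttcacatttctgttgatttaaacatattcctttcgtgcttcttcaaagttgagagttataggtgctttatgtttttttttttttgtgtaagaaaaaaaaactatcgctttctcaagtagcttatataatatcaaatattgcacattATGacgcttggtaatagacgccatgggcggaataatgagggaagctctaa
*ZRT1* (chrVII:20728-21027, plus strand): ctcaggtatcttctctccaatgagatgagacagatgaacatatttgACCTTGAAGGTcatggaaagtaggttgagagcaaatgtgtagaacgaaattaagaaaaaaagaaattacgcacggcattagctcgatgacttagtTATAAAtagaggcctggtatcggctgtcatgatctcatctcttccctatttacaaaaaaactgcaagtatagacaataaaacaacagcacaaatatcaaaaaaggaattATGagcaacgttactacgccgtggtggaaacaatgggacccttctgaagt
The match in *SNF3* is on the opposite strand and ends 1 base before the start codon, and a match is not shown to be a working element. TATAAA stood within 250 bases before the start codon, on either strand, in 43.4% of 5792 promoters. The share was 43.7% in genes past the threshold of the allele comparison, 50.2% in those that differed by at least 2-fold and 41.8% in the remaining ones. The Zap1p sequence, palindromic and thus the same on both strands, was found in 5 promoters of 5792, those of *ZRT1*, *MCD4*, *PCD1*, *ZRG17* and *MRX15*.

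The values are normalized read counts, rounded to whole numbers, and only reads over a difference between the parents of a hybrid could be given to an allele. The upper quartile was 2010 in all 6 columns, so the values hold no depth, and the number of reads behind a single value is unknown. Per library, the study lists far fewer uniquely mapped reads for the cross of YHL065 than for those of YHL058 and YHL063. In each column exactly 10 genes shared the highest value, between 275455 and 388493, and the values below it came in steps. The stated normalization, an upper-quartile scaling and a loess fit on GC content, would not by itself give such ties, so how the values were made is not fully known. Each ratio below is a ratio of these values, and how far it differs from a ratio of read counts was not tested. There were 2272 to 2500 distinct values per column in YHL058 and YHL063 and 1404 to 1409 in YHL065, which is thus the coarsest library. In the S288C reference, 17 genes consist only of 100-base windows that occur elsewhere in the genome, such as Ty elements and *YRF1-6*. Their values followed their place in the alphabetical gene table, from between 24 and 29 for the first to between 499 and 622 for the last. A further group of genes lay on the same course, within 1.5% plus 1.5, so that 134 genes were on it for both alleles in every hybrid, 56 of them without a repeated window and 47 shorter than 300 bases. None of the 134 was past the threshold. Values on this course are not read as levels below. For the Malaysian allele only, 16 genes were on it, and for the wine/European allele only, 22 were. Of these genes with 1 allele on it, 11 were past the threshold, which 17.9% of all genes compared were.

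Marker genes were read as a check of the labels. *LYS2*, needed for lysine synthesis, had 2383, 2483 and 2171 for the Malaysian allele and 1, 1946 and 1876 for the wine/European allele in YHL058, YHL063 and YHL065, so the RM11-1b copy alone was near 0. *URA3*, of pyrimidine synthesis, had 53, 73 and 21 for the Malaysian allele and 7, 14 and 8 for the wine/European allele, low in every hybrid. *HO*, the mating-type switching endonuclease, had 4, 4 and 8 (Malaysian) against 5, 1 and 0 (wine/European) and was below the filter. The 8 haploid-specific markers summed to between 838 and 1133 per column, 3 of them under 100 in every column and *MFA1* on the file-order course. The 5 sporulation markers summed to between 434 and 591, with 2 under 100 in every column. The share of such cells was not tested.

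Of the genes compared, 1026 (17.9%) differed between alleles at an adjusted *P* under 0.05 in limma with the alleles paired by hybrid. The Malaysian allele was higher at 517 (9.01%) and lower at 509 (8.87%), and without adjustment 2052 genes had a *P* under 0.05. All 1026 had the same sign in the 3 hybrids, which 3293 of all genes compared (57.4%) also had. The 3 values of 1 allele lay wholly above the 3 of the other at 777 of them, and at 1332 (23.2%) of all genes compared. Most differences were small. The median absolute log2 ratio was 0.59 among genes past the threshold (quartiles 0.41 and 0.92) and 0.18 among all genes compared, and 511 of the 1026 (49.8%) differed by less than 1.5-fold. At least 2-fold differences were found at 230 genes, 108 with the Malaysian allele higher and 122 lower, and at least 4-fold ones at 66, 34 higher and 32 lower. The median log2 ratio of all genes compared was 0.00, in columns scaled to one upper quartile.

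**Figure D1:**
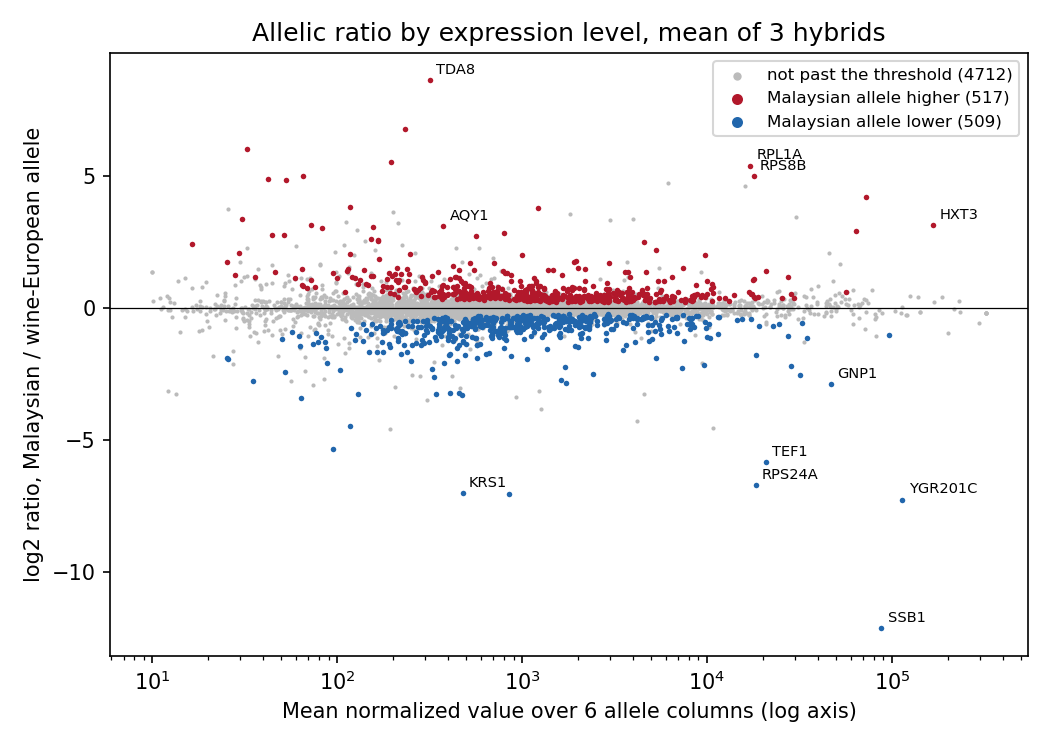
Log2 ratio of the Malaysian to the wine/European allele (vertical axis) against the mean normalized value over the 6 allele columns (horizontal axis, log scale), 1 point per gene. Red points are the 517 genes past the threshold with the Malaysian allele higher, blue points the 509 with it lower and gray points the others. The calls lie on both sides of 0 at all levels, and the few ratios beyond 5 include the ribosomal protein genes *RPL1A*, *RPS8B* and *RPS24A*.

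The number of genes past the threshold depended on which hybrids were in the fit. Leaving out YHL058 gave 621 genes, leaving out YHL063 gave 55 and leaving out YHL065 gave 710. The count was 270 when the alleles were not paired. YHL063 shares a parent with each of the other hybrids, and the remaining 2 share none. The fit treats the hybrids as independent replicates, so its standard errors and adjusted *P* values do not account for the shared parents. Across genes, the log2 ratios of YHL058 and YHL063 had a Pearson correlation of 0.651, those of YHL063 and YHL065 one of 0.686 and those of YHL058 and YHL065 one of 0.479, over 5738 genes that are not independent replicates. The interquartile range of the ratios was 0.387 in YHL058, 0.359 in YHL063 and 0.484 in YHL065. Of the 156 genes named by rule, 119 stayed past the threshold without YHL058, 33 without YHL063 and 117 without YHL065. Those past it in each of these fits and without pairing were 31: *AQY1*, *CHO2*, *COS1*, *COS8*, *CPP3*, *DAN4*, *ETT1*, *GNP1*, *GPX2*, *HIS4*, *HXT3*, *IMD4*, *KRS1*, *MMP1*, *PAU23*, *PGA3*, *PLB2*, *PST1*, *QCR6*, *RPL1A*, *RPS24A*, *RPS24B*, *RPS4B*, *RPS8B*, *SBA1*, *SMA2*, *SNQ2*, *TDA8*, *TEF1*, *XBP1* and *ZRT1*. *MET6* and YKL183C-A were also past it without YHL063. The 31 include genes whose ratios have other limits, given below. Among them, *DAN4*, *HXT3*, *IMD4*, *RPL1A*, *RPS24A*, *RPS24B*, *RPS4B*, *RPS8B* and *TEF1* have repeated windows. *CPP3* has its Malaysian values on the file-order course, and *KRS1*, *TDA8* and *COS8* were near 0 for 1 allele. Passing in every fit does not remove these limits. Of the genes with values below, those lost without YHL058 were *AIF1*, *ARG56*, *ARN1*, *CDC6*, *CIT2*, *GAL3*, *GAL80*, *GPH1*, *HDA1*, *IMD2*, *MGE1*, *MHT1*, *MSH3*, *NTH1*, *RAD4*, *RPN3*, *SUP35*, *TIF4632*, *URA3*, *YCF1*, *ZIP2* and *ZRC1*, at adjusted *P* between 0.0512 and 0.131 (limma). Those lost without YHL065 were *AIF1*, *APE3*, *ARG56*, *ARN1*, *AYT1*, *CCS1*, *CDC6*, *CLB4*, *COS7*, *CTR2*, *DUR3*, *FRE7*, *GAL3*, *GLK1*, *GPH1*, *HDA1*, *IRC7*, *MDH2*, *MGE1*, *NOP2*, *NOP7*, *NTH1*, *RPN12*, *SIT1*, *SSU1*, *SUP35*, *TIF4632*, *YCF1*, YGR201C and YKL183C-A, at 0.0502 to 0.0968. All genes past the threshold had the same sign in the 3 hybrids, so none could change direction in these fits.

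Among genes with at least 10 in every column and no repeated window, *AQY1* had the largest ratio in favor of the Malaysian allele. Its normalized values were 619, 798 and 605 for the Malaysian allele and 61, 90 and 81 for the wine/European allele in YHL058, YHL063 and YHL065, the order used from here on. The alleles did not overlap, and the log2 ratio was 3.11 ± 0.12 (SE, n = 3 hybrids, limma adjusted *P* = 0.00153). *GPX2*, a glutathione peroxidase that reduces lipid peroxides, had 14543, 6297 and 5663 for the Malaysian allele and 2783, 1456 and 1248 for the wine/European allele. Its levels differed more than 2-fold between hybrids while the ratio did not, at 2.23 ± 0.07 (SE, adjusted *P* = 0.00122 from limma). *ETT1*, a nuclear protein of translation termination, had 18681, 13193 and 15149 (Malaysian) against 3991, 3572 and 3943 (wine/European), a log2 ratio of 2.02 ± 0.09. *XBP1*, a stress-induced repressor of cyclin genes, had 362, 293 and 202 (Malaysian) against 51, 67 and 28 (wine/European), a log2 ratio of 2.57 ± 0.19. These 4 genes stayed past the threshold without each of the hybrids.

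The other genes among the 12 largest ratios of this kind were less even. *IRC7*, a cysteine S-conjugate lyase that releases volatile thiols, had 9042, 5546 and 7636 for the Malaysian allele and 3795, 670 and 835 for the wine/European allele. The RM11-1b copy was thus several times higher than the BC187 copy, and the log2 ratio was 2.50 ± 0.42, with an adjusted *P* of 0.153 without YHL063 and 0.083 without YHL065 (limma). *THI73*, a putative permease, had 262, 438 and 511 (Malaysian) against 69, 92 and 122 (wine/European), a log2 ratio of 2.07 ± 0.11. *SNF3*, whose promoter is printed above, had 334, 293 and 173 (Malaysian) against 95, 70 and 49 (wine/European), a log2 ratio of 1.88 ± 0.12 and an adjusted *P* of 0.0711 without YHL063. *YRB1*, a Ran-binding protein of nuclear transport, had 123, 164 and 157 (Malaysian) against 10, 24 and 20 (wine/European), a log2 ratio of 3.04 ± 0.23. Its parents had between 21645 and 23901, and its hybrid-to-parent level was 89.0-fold below that of the median gene. The poorly characterized genes YKR104W, YIR042C, YHR022C and YKL183C-A had log2 ratios of 2.62, 2.57, 2.06 and 2.01. Without YHL063, *SNF3*, YHR022C, *THI73*, *IRC7*, YIR042C, YKR104W and *YRB1* missed the threshold, at adjusted *P* between 0.0539 and 0.153 from limma.

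In the other direction, *GNP1* combined a large ratio with a high level. Its values were 8183, 11547 and 13860 for the Malaysian allele and 58256, 90625 and 99130 for the wine/European allele, far apart in every hybrid (log2 ratio -2.88 ± 0.08, limma adjusted *P* = 0.000936). *PLB2*, a phospholipase B, had 7429, 8565 and 11961 (Malaysian) against 36788, 53608 and 72757 (wine/European), a log2 ratio of -2.52 ± 0.10. *MMP1*, the permease for S-methylmethionine, had 759, 694 and 721 (Malaysian) against 4346, 3890 and 4142 (wine/European). Both of its alleles were nearly constant over the hybrids, and its log2 ratio of -2.51 ± 0.05 was alike in all 3. *PGA3*, similar to cytochrome b5 reductases, had 390, 426 and 453 (Malaysian) against 2467, 2925 and 3068 (wine/European, log2 ratio -2.73 ± 0.06). *PST1*, a cell wall mannoprotein, had 119, 85 and 58 (Malaysian) against 1244, 695 and 640 (wine/European), and both alleles were highest in YHL058 (log2 ratio -3.28 ± 0.12, adjusted *P* = 0.00147 from limma).

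*SMA2*, of prospore membrane assembly, had 42, 66 and 95 for the Malaysian allele and 505, 599 and 758 for the wine/European allele (log2 ratio -3.23 ± 0.15.) *HBT1*, a protein of the mating projection, had 23, 19 and 29 (Malaysian) against 189, 193 and 328 (wine/European, log2 ratio -3.24 ± 0.17). *SPO21*, of the meiotic spindle pole body, had 59, 61 and 185 (Malaysian) against 703, 850 and 887 (wine/European, log2 ratio -3.20 ± 0.33), where the UWOPS05.217.3 copy was higher than that of UWOPS03.461.4. *ADR1*, an activator of genes repressed by glucose, had 24, 45 and 33 (Malaysian) against 142, 220 and 162 (wine/European, log2 ratio -2.35 ± 0.15). Expression of these genes in log-phase cells was low for the Malaysian allele, at most 185. *NOP12*, of ribosome biogenesis, had 266, 72 and 29 (Malaysian) against 835, 453 and 344 (wine/European, log2 ratio -2.60 ± 0.38), and its hybrid-to-parent level was 10.5-fold below that of the median gene. YGR201C, similar to a translation elongation factor, had 177, 559 and 667 (Malaysian) against 2057, 292197 and 388493 (wine/European, log2 ratio -7.25 ± 1.25). Its BC187 copy was at the highest value of its column in both hybrids that carry it, as was the BC187 parent at 1064432, and its adjusted *P* was 0.154 without YHL063 and 0.0883 without YHL065. The small gene *CPP3* had 70, 80 and 86 (Malaysian) against 750, 695 and 766 (wine/European), but its Malaysian values lie on the file-order course, so that the size of its ratio was not measured. Without YHL063, *HBT1*, *SPO21*, *NOP12*, *ADR1* and YGR201C missed the threshold (limma adjusted *P* between 0.0525 and 0.154).

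**Figure D2:**
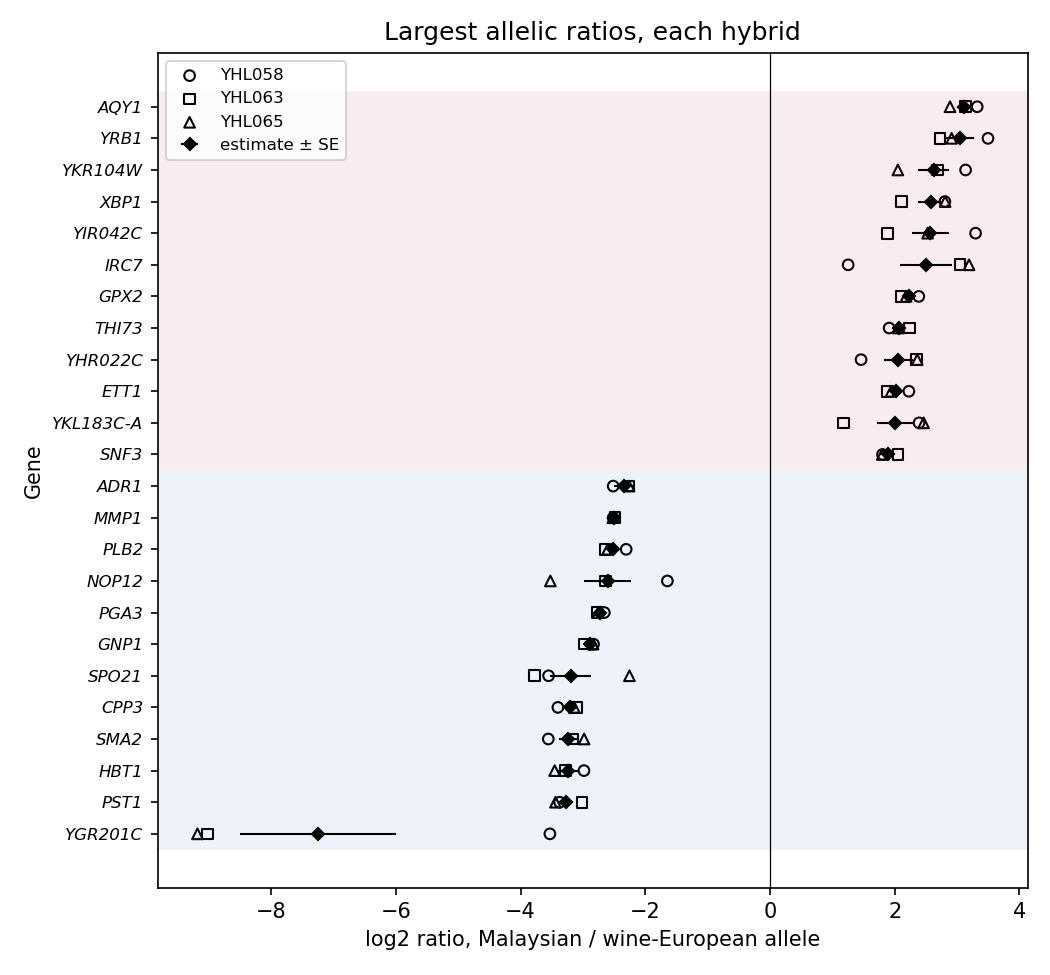
Log2 ratio of the Malaysian to the wine/European allele for the 12 largest ratios in each direction among genes past the threshold with at least 10 in every column and no repeated window. Open symbols are the 3 hybrids, diamonds the limma estimate with its standard error. *AQY1*, *GPX2*, *MMP1*, *GNP1* and *PGA3* have nearly the same ratio in each hybrid, while YGR201C, *IRC7* and *NOP12* do not.

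The function of the genes was described with lists of pathways, each given by its count past the threshold and its median log2 ratio, beside 17.9% and 0.00 for all genes compared. Transport and storage of copper, zinc and manganese had the highest share, 8 of 18 genes (44.4%), 4 with the Malaysian allele higher and 4 lower, and a median of 0.03. The 3 zinc transporters among them had a lower Malaysian allele. *ZRT1* had 519, 551 and 733 for the Malaysian allele and 2704, 2586 and 3137 for the wine/European allele (log2 ratio -2.23 ± 0.08, limma adjusted *P* = 0.00122). The low-affinity zinc transporter *ZRT2* had 1895, 2019 and 3320 (Malaysian) against 5539, 5902 and 5734 (wine/European), where the Malaysian value of YHL065 was the highest of the 3 (log2 ratio -1.29 ± 0.18). *ZRC1*, which stores zinc in the vacuole, had 15638, 21032 and 16010 (Malaysian) against 27530, 35086 and 49545 (wine/European, log2 ratio -1.06 ± 0.20). *CTR2*, the vacuolar copper transporter, had 4556, 4575 and 7113 (Malaysian) against 3460, 2779 and 4275 (wine/European, log2 ratio 0.62 ± 0.09), and *CCS1*, the copper chaperone of superoxide dismutase, 3611, 4273 and 3934 (Malaysian) against 2737, 2563 and 2679 (wine/European, log2 ratio 0.56 ± 0.08). The metallothionein *CRS5* had a log2 ratio of -0.97, but its Malaysian values lie on the file-order course. Apart from *ZRT1*, these genes missed the threshold without YHL063 (adjusted *P* from 0.0841 to 0.207, limma).

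Iron genes were measured beside these metals. Of 20 high-affinity uptake genes, 6 passed (30.0%), 3 higher and 3 lower from the Malaysian allele, with a median of 0.19. The highest ratio was at *FIT1*, 1.499 (limma adjusted *P* = 0.0144), which passed but was outside the naming rule. *FTR1*, the iron permease, had 17505, 9160 and 12394 for the Malaysian allele and 11477, 6578 and 7679 for the wine/European allele (log2 ratio 0.59 ± 0.07). *FRE6*, a vacuolar metalloreductase, had 1178, 1207 and 1190 (Malaysian) against 2028, 1806 and 1609 (wine/European, log2 ratio -0.60 ± 0.08). *FRE7*, a copper-regulated reductase, had 157, 171 and 124 (Malaysian) against 248, 448 and 450 (wine/European, log2 ratio -1.30 ± 0.25), and both siderophore transporters that passed were close to equal, *ARN1* at 0.33 and *SIT1* at -0.34. Of 19 genes for low-affinity uptake, the vacuole, mitochondria and regulators, 5 passed (26.3%), 3 higher and 2 lower, with a median of 0.01. *FET4*, the low-affinity transporter, had 3862, 2645 and 3130 (Malaysian) against 1753, 912 and 879 (wine/European, log2 ratio 1.5 ± 0.14), and the vacuolar transporter *COT1* 190, 183 and 165 (Malaysian) against 757, 677 and 434 (wine/European, log2 ratio -1.75 ± 0.15). Iron-sulfur cluster assembly and heme synthesis had 1 of 28 (3.57%), *MGE1* at 0.26, and a median of 0.02. None of the iron genes stayed past the threshold without YHL063, with adjusted *P* between 0.0749 and 0.23 from limma, and *FRE7* missed it also without YHL065, at 0.0747.

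Sugar use and transport came next. *SUC2*, the secreted invertase that splits sucrose, had 3040, 2621 and 3382 for the Malaysian allele and 660, 908 and 1090 for the wine/European allele, with no overlap (log2 ratio 1.79 ± 0.15, limma adjusted *P* = 0.00656, and 0.0632 without YHL063). In the list of galactose and maltose genes 5 of 15 passed (33.3%), 3 higher and 2 lower. Among them, *GAL3*, the galactose sensor, had 0.86, *GAL80*, the repressor of the same pathway, -0.58 and the isomaltase *IMA5* -1.28. *MAL32* also passed, with the Malaysian allele higher, but was outside the naming rule, and the log2 ratios of the list reached 4.86. Of 17 hexose transporters and sensors, 3 passed (17.6%), all with the Malaysian allele higher. *HXT3*, a major hexose carrier in glucose medium, was at the highest value of its column for the Malaysian allele in every hybrid (292159, 275455 and 336140), against 27410, 32342 and 42299 for the wine/European allele. Its log2 ratio of 3.16 therefore carries the ceiling of the scale, and part of its windows are repeated in related *HXT* genes. Glycolysis had 1 gene of 19 past the threshold (5.26%), *GLK1* at 0.48 with a hybrid-to-parent level 11.8-fold below that of the median gene, and a range from -0.55 to 1.03. Of the sugar genes in these lists *HXT3* alone passed without YHL063, and the others had adjusted *P* between 0.0632 and 0.235 in limma.

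Genes for ethanol, acetate and glycerol had 6 of 22 past the threshold (27.3%), 3 in each direction. The alcohol dehydrogenase *ADH4* had 1742, 2136 and 2088 for the Malaysian allele and 2786, 2964 and 3639 for the wine/European allele (log2 ratio -0.65 ± 0.08), and the mitochondrial aldehyde dehydrogenase *ALD4* 745, 605 and 498 (Malaysian) against 430, 351 and 292 (wine/European, log2 ratio 0.78 ± 0.07) at a hybrid-to-parent level 13.2-fold below that of the median gene. In the tricarboxylic acid and glyoxylate cycles 11 of 35 passed (31.4%), 4 higher and 7 lower, with a median of -0.01. *ACO1*, the aconitase of the cycle, had 35196, 43262 and 36065 (Malaysian) against 15447, 16780 and 17547 (wine/European, log2 ratio 1.20 ± 0.10). Among the lower ones were the malate dehydrogenase *MDH2* (-1.01) and the succinate dehydrogenase subunits *SDH1* and *SDH3* (both -0.92). Respiratory chain and ATP synthase had 7 of 42 (16.7%), 6 higher and 1 lower, with a median of 0.12. The subunits of complex III did not move together. *QCR6* had 3948, 3103 and 3588 (Malaysian) against 16311, 14583 and 16392 (wine/European, log2 ratio -2.16 ± 0.06), whereas *QCR9* had 2014, 2087 and 1965 (Malaysian) against 659, 700 and 900 (wine/European, log2 ratio 1.44 ± 0.12). *QCR6* alone of the genes in these 3 lists stayed past the threshold without YHL063 (adjusted *P* of the others from 0.0652 to 0.256, limma). Trehalose and glycogen had 3 of 21 (14.3%), from -0.80 for the trehalase *NTH1* to 1.17 for the phosphorylase *GPH1*, both with a hybrid-to-parent level over 4-fold below that of the median gene. None of these 3 passed without YHL063 (limma adjusted *P* from 0.0873 to 0.149).

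**Figure D3:**
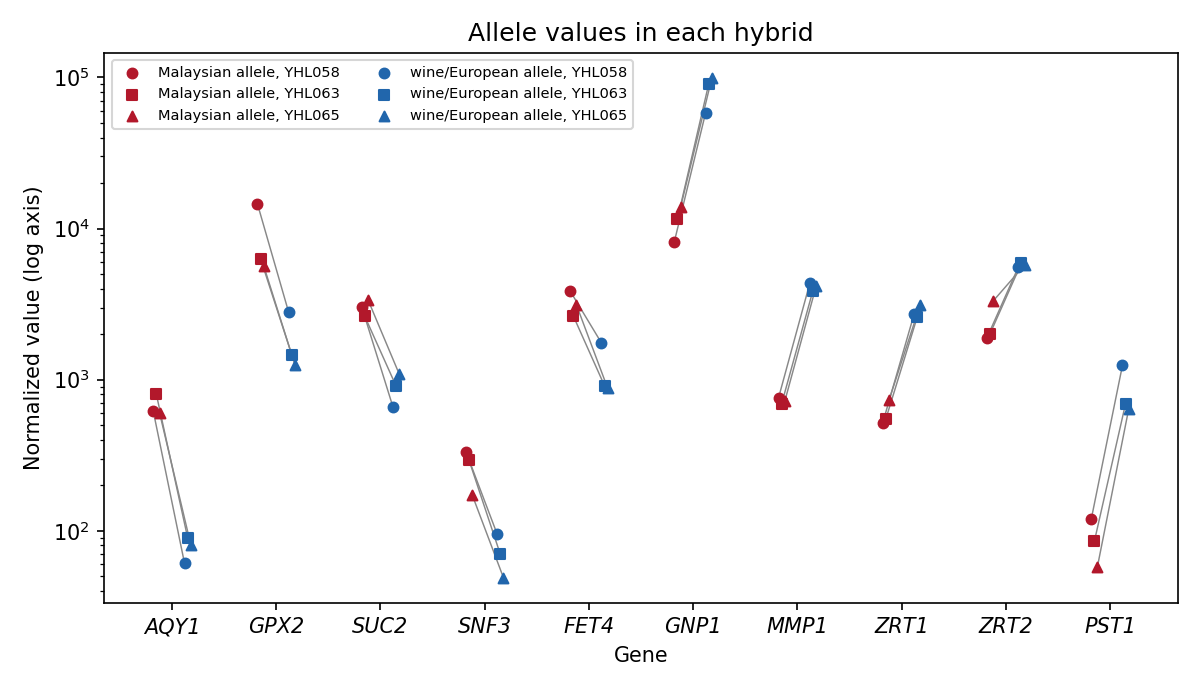
Normalized values (log axis) of 10 genes of the text in each hybrid, with the Malaysian allele (red) left of the wine/European allele (blue) and a line joining the alleles of a hybrid. The Malaysian values of *AQY1*, *GPX2*, *SUC2*, *SNF3* and *FET4* lie above the wine/European ones in all 3 hybrids, and those of *GNP1*, *MMP1*, *ZRT1*, *ZRT2* and *PST1* below them.

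Uptake and synthesis of amino acids were described with 4 lists. Of 29 permease genes 9 passed (31.0%), 4 higher and 5 lower, with a median of -0.14. The lowest ratio was at *AGP3*, -3.41 (limma adjusted *P* = 0.0188), which passed but was outside the naming rule. Beside *GNP1*, *LYP1*, the lysine permease, had 6891, 5899 and 6545 for the Malaysian allele and 11982, 12951 and 18439 for the wine/European allele (log2 ratio -1.14 ± 0.15). *DUR3*, a urea and polyamine transporter, had 35, 39 and 25 (Malaysian) against 59, 113 and 109 (wine/European, log2 ratio -1.44 ± 0.31). The opposite sign was found at *DIP5*, the permease for glutamate and aspartate, with 3771, 6015 and 4621 (Malaysian) against 2335, 3328 and 2743 (wine/European, log2 ratio 0.77 ± 0.06), and at the histidine permease *HIP1* (log2 ratio 0.50 ± 0.06). Of 76 biosynthetic enzymes 18 passed (23.7%), 8 higher and 10 lower, with a median of -0.02. *HIS4*, of histidine synthesis, had 1970, 2054 and 2026 (Malaysian) against 5352, 5706 and 4745 (wine/European, log2 ratio -1.38 ± 0.07), nearly constant for the Malaysian allele. *ARO10*, the decarboxylase that leads to fusel alcohols, had 390, 313 and 288 (Malaysian) against 984, 668 and 900 (wine/European, log2 ratio -1.35 ± 0.13). *GDH3*, a glutamate dehydrogenase, had 582, 707 and 577 (Malaysian) against 252, 380 and 296 (wine/European, log2 ratio 1.02 ± 0.09). Catabolic genes had 3 of 23 (13.04%), with *CAR2*, the ornithine transaminase, at -0.90 and the asparaginase *ASP1* at -0.66.

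In sulfur and methionine metabolism 7 of 34 passed (20.6%), 3 higher and 4 lower. The permeases of the methyl cycle were lower from the Malaysian allele, *MMP1* as given above and *SAM3*, for S-adenosylmethionine, with 4244, 5239 and 3851 (Malaysian) against 7647, 13586 and 10686 (wine/European, log2 ratio -1.23 ± 0.14). *MET6*, methionine synthase, was higher, with 1871, 3411 and 3480 (Malaysian) against 827, 2103 and 1483 (wine/European, log2 ratio 1.03 ± 0.12). Without YHL063 the genes of these 4 lists that stayed past the threshold were *GNP1*, the choline transporter gene *HNM1*, *HIS4*, *MET6* and *MMP1*, and the others had adjusted *P* between 0.0632 and 0.244 (limma). Purine synthesis had 3 of 19 (15.8%), all paralogs of IMP dehydrogenase with repeated windows, and pyrimidine synthesis 4 of 18 (22.2%), from -0.96 for *RNR2*, a subunit of ribonucleotide reductase, to 2.12 for *URA3*. As given above, *URA3* was low for both alleles in every hybrid, and RM11-1b is a *ura3* strain. Without YHL058, the only hybrid with RM11-1b, the log2 ratio of *URA3* was 1.80. The part of the *ura3* marker in the ratio over the 3 hybrids was not tested. The phosphate regulon had 5 of 24 (20.8%), with the acid phosphatases *PHO5* and *PHO3* at 1.20 and -1.20. *PHO5* had 559, 527 and 721 (Malaysian) against 187, 268 and 344 (wine/European), and *PHO3* 1353, 1914 and 1767 (Malaysian) against 2615, 5691 and 3716 (wine/European). Vitamin genes had 3 of 33 (9.09%), with *BPL1*, the biotin ligase, at 0.70 and *TPN1*, the pyridoxine transporter, at -0.67. *IMD4* alone of the nucleotide, phosphate and vitamin genes passed without YHL063, and the others had adjusted *P* between 0.058 and 0.214 in limma.

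Lipid and cell wall genes differed in how often they passed. Ergosterol synthesis had 4 of 28 (14.3%), all with the Malaysian allele higher, from 0.37 to 0.50. *ERG12*, mevalonate kinase, had 1474, 1529 and 1182 for the Malaysian allele and 960, 1152 and 843 for the wine/European allele (log2 ratio 0.50 ± 0.07). Fatty acid and phospholipid synthesis had 7 of 36 (19.4%), 4 higher and 3 lower. *CHO2*, which methylates phosphatidylethanolamine, had 11555, 9578 and 9535 (Malaysian) against 51237, 40239 and 49695 (wine/European, log2 ratio -2.20 ± 0.09). *OLE1*, the fatty acid desaturase, had 8090, 17143 and 15318 (Malaysian) against 4464, 7248 and 7456 (wine/European, log2 ratio 1.05 ± 0.09), and the inositol transporter *ITR1* 24505, 26731 and 20656 (Malaysian) against 13040, 10343 and 11120 (wine/European, log2 ratio 1.06 ± 0.12). Cell wall proteins and enzymes had 17 of 51 past the threshold (33.3%), 8 higher and 9 lower, with a median of -0.03. *SPS2* was among the higher ones but outside the naming rule, and the log2 ratios of the list reached 4.92. Beside *PST1*, *AGA1*, the anchor of a-agglutinin, had 75, 93 and 132 (Malaysian) against 347, 338 and 515 (wine/European, log2 ratio -2.0 ± 0.12). *CRH1*, which links chitin to glucan, had 16390, 14703 and 10277 (Malaysian) against 8669, 7811 and 6731 (wine/European, log2 ratio 0.81 ± 0.09), and the chitinase *CTS1* 12101, 10431 and 13073 (Malaysian) against 9098, 7450 and 8032 (wine/European, log2 ratio 0.53 ± 0.08). Without YHL063 only *CHO2* and *PST1* of these 3 lists passed (adjusted *P* of the others from 0.0523 to 0.243 in limma).

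The repeat-rich mannoprotein families were measured in part. None of the 4 flocculin genes compared passed. Of 22 genes of the DAN, TIR and seripauperin family 3 passed (13.6%), 16 had repeated windows and 8 lay on the file-order course for at least 1 allele. *DAN4* had 262, 195 and 206 for the Malaysian allele and 17, 14 and 12 for the wine/European allele (log2 ratio 3.86 ± 0.17), with repeated windows. *PAU23*, without a repeated window, had 282, 306 and 338 (Malaysian) against 865, 1079 and 1090 (wine/European, log2 ratio -1.70 ± 0.08).

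Among ABC and major facilitator genes, the largest ratio was at *SNQ2*. *SNQ2*, an ABC transporter of many toxic compounds, had 24736, 36715 and 29314 for the Malaysian allele and 9725, 12951 and 11120 for the wine/European allele (log2 ratio 1.42 ± 0.07, limma adjusted *P* = 0.00227). *PDR3*, a transcription factor of the same network, had 465, 559 and 700 (Malaysian) against 286, 301 and 369 (wine/European, log2 ratio 0.84 ± 0.08). Of 25 ABC and major facilitator genes 5 passed (20%), 3 higher and 2 lower. Of 17 pumps and channels for ions and water 2 passed (11.8%), *AQY1* and the sulfite pump *SSU1*. *SSU1* had 172, 154 and 152 (Malaysian) against 1282, 417 and 494 (wine/European), so that the RM11-1b copy was the highest (log2 ratio -2.01 ± 0.31), and its adjusted *P* was 0.0959 without YHL063 and 0.06 without YHL065. *PDR3* missed the threshold without YHL063, with the lost genes of its list between 0.0652 and 0.224.

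Lists for stress and protein quality control had shares from 13.5% to 24%, on both sides of the 17.9% of all genes compared. Antioxidant and thiol enzymes had 10 of 42 (23.8%), 7 higher and 3 lower, with a median of 0.08. After *GPX2*, the thioredoxin peroxidase *DOT5* had 647, 678 and 577 for the Malaysian allele and 358, 357 and 272 for the wine/European allele (log2 ratio 0.95 ± 0.08), and *GND2*, of the pentose phosphate pathway, 46, 55 and 33 (Malaysian) against 135, 154 and 97 (wine/European, log2 ratio -1.51 ± 0.14). Chaperones had 8 of 45 (17.8%), 4 in each direction, and 3 of the 8 had repeated windows. Their log2 ratios ran from -12.13 for *SSB1*, described below, to 1.51 for *SSA1*. The Hsp90 co-chaperone *SBA1* had 3162, 3062 and 3073 (Malaysian) against 7555, 6664 and 6849 (wine/European), without overlap and nearly constant for the Malaysian allele (log2 ratio -1.18 ± 0.06). The proteasome had 5 of 37 (13.5%), from -0.68 for *RPN12* to 0.39 for *RPN3*. Vacuolar proteases and the proton pump had 6 of 25 (24%), 5 higher and 1 lower, with *APE3*, an aminopeptidase, at 0.54 and the pump subunit *VMA3* at -0.70. *GPX2* and *SBA1* stayed past the threshold without YHL063, and the others of these lists had adjusted *P* between 0.0541 and 0.217 (limma).

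**Figure D4:**
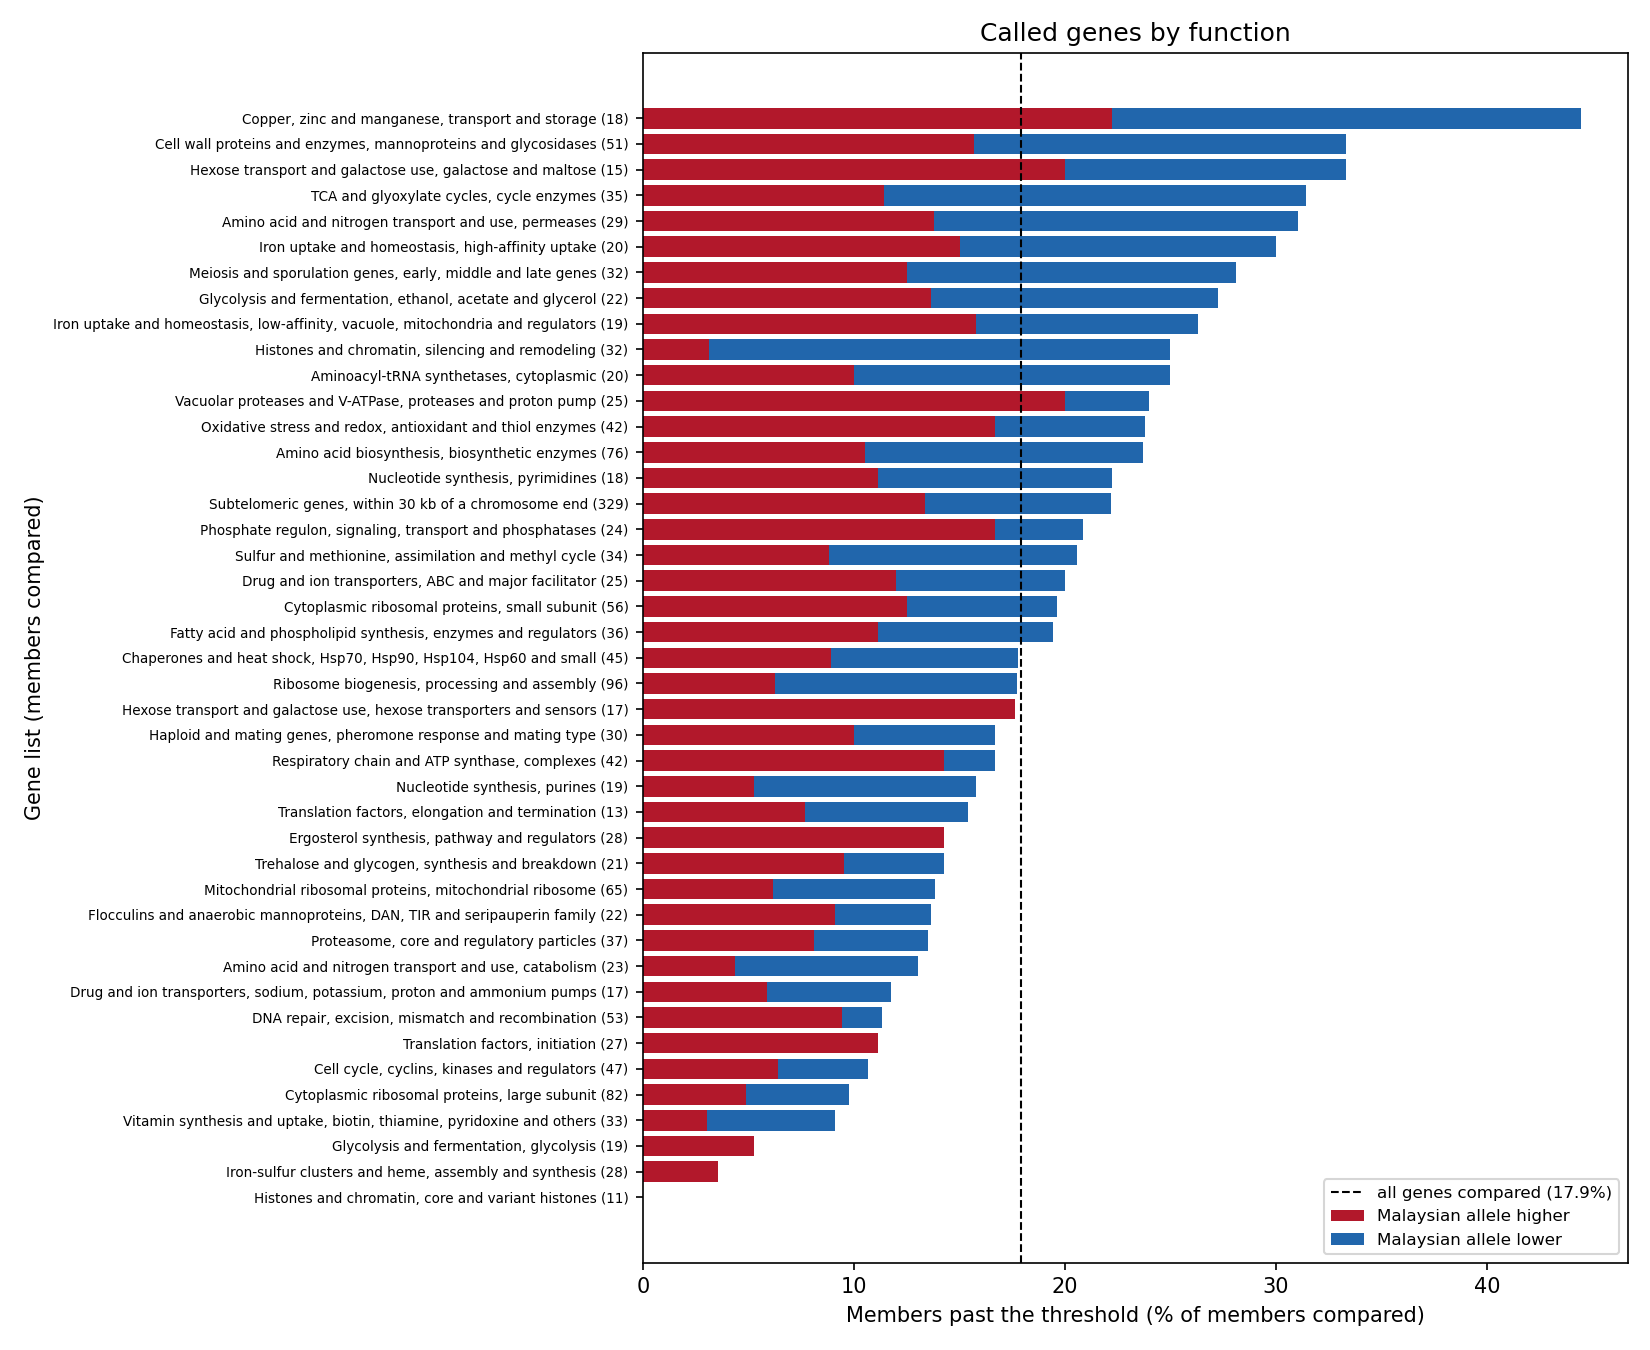
Share of the genes of each list that were past the threshold (horizontal axis, percent of members compared), split into genes with the Malaysian allele higher (red) and lower (blue), for lists of at least 10 genes compared, with the number compared in brackets. The dashed line is the share of all genes compared, 17.9%, and the shares run from 0 for histones to 44.4% for copper, zinc and manganese.

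Genes of the translation machinery have to be read with their copies. Of 82 genes for the large ribosomal subunit 8 passed (9.76%), and of 56 for the small subunit 11 passed (19.6%), with medians of 0.06 in both. Of these 19 genes, 12 had a hybrid-to-parent level between 5.72-fold and 156-fold below that of the median gene, and 6 of the other 7 had repeated windows. Only *RPL33B* was in neither group, with 4652, 3678 and 3147 for the Malaysian allele and 3368, 2671 and 1933 for the wine/European allele (log2 ratio 0.54 ± 0.07, limma adjusted *P* = 0.0153, and 0.112 without YHL063). Among the 12, *RPL20B* had 131, 93 and 82 (Malaysian) against 353, 331 and 332 (wine/European, log2 ratio -1.75 ± 0.15) at 156-fold below the median gene. The part of this low level in the ratios was not tested. Of all 5738 genes compared, 253 were over 4-fold below the median gene, and 36 of these (14.2%) passed. Repeated windows were in 24 of the 82 large-subunit genes and 8 of the 56 small-subunit genes, of which 3 and 4 passed. Among all genes compared, 43 of the 289 with repeated windows passed. *RPL1A*, *RPS24A*, *RPS24B*, *RPS8B* and *RPS4B* were the ribosomal protein genes that passed without YHL063, and the others had adjusted *P* between 0.0536 and 0.194.

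The ratios beyond 16-fold at ribosomal protein genes were all at members of near-identical pairs. *RPL1A* had 38739, 28575 and 33054 for the Malaysian allele and 779, 723 and 847 for the wine/European allele (log2 ratio 5.41 ± 0.09), and 61.3% of its 100-base windows are repeated. Its copy *RPL1B* leaned the same way, with 27975, 21111 and 24400 (Malaysian) against 13821, 9840 and 10516 (wine/European, log2 ratio 1.11 ± 0.07), and the sum over both copies had log2 ratios of 2.19, 2.23 and 2.34. *RPS4B* had 136412, 110237 and 164791 (Malaysian) against 6353, 6625 and 8980 (wine/European, log2 ratio 4.23 ± 0.11), with 9.52% of windows repeated, and the sum with *RPS4A* had 2.11, 1.79 and 1.87. *RPS8B* had 47114, 30377 and 26814 (Malaysian) against 1125, 966 and 1058 (wine/European, log2 ratio 5.01 ± 0.15), with 72.6% repeated, and the sum with *RPS8A* had 2.03, 1.80 and 0.76. The imbalance of each pair was thus smaller than that of the leading copy but did not come to 0. Parents of the same populations differed by 0.34 at *RPL1A*, 1.08 at *RPS4B* and 2.11 at *RPS8B* on the log2 scale.

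*RPS24A* was the largest in the other direction, with 427, 432 and 218 for the Malaysian allele and 30713, 35250 and 42794 for the wine/European allele (log2 ratio -6.71 ± 0.31, limma adjusted *P* = 0.00187). Its copy *RPS24B* had 2210, 2577 and 2751 (Malaysian) against 10309, 11967 and 14289 (wine/European, log2 ratio -2.27 ± 0.06). Repeated windows made up 6.84% of those of *RPS24A* and 7.38% of those of *RPS24B*. Over both copies the log2 ratio was -3.96, -3.97 and -4.26, far from the parental difference of -0.88 at *RPS24A* and -0.36 at *RPS24B*. The longest stretch that the copies share in S288C (R64, RefSeq) is 152 bases long and is the same in both, so a read wholly inside it matches both copies of the reference.
*RPS24A* (chrV:306993-307144, plus strand): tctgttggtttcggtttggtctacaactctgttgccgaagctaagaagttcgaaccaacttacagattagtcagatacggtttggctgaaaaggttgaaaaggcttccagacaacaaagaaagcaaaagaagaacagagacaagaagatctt
*RPS24B* (chrIX:231605-231756, minus strand): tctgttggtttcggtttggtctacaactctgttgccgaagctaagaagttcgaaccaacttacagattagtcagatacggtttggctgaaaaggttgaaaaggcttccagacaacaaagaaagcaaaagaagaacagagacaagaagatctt
Other genes with repeated windows and large ratios differed in how their copies behaved. *TEF1*, translation elongation factor 1 alpha, had 792, 710 and 593 (Malaysian) against 51237, 45331 and 25940 (wine/European, log2 ratio -5.82 ± 0.13), with 86.5% of its windows repeated. Its copy *TEF2* had 795, 698 and 33 (Malaysian) against 626, 646 and 620 (wine/European), near equal in YHL058 and YHL063, and the sum over both had log2 ratios of -5.03, -5.03 and -5.40. *SSB1*, an Hsp70 of the ribosome, had 80, 93 and 4 (Malaysian) against 71732, 292197 and 161987 (wine/European, log2 ratio -12.13 ± 1.02), while its parents differed by -0.45, and 31.8% of its windows are repeated (adjusted *P* = 0.0736 without YHL063, limma). The sum of *SSB1* and *SSB2* had -3.56, -4.34 and -2.40. *IMD4*, an IMP dehydrogenase, had 135921, 109915 and 95014 (Malaysian) against 15447, 15300 and 13811 (wine/European, log2 ratio 2.92 ± 0.11), and *IMD2* 364, 201 and 902 (Malaysian) against 2011, 3952 and 2950 (wine/European, log2 ratio -2.82 ± 0.52). *IMD2* missed the threshold without YHL058 and without YHL063, at 0.0686 and 0.0729. *IMD3* went the opposite way to *IMD4*, at -0.86 ± 0.15, and their sum had 2.60, 2.32 and 2.13. *IMD3* missed the threshold without YHL063, at 0.128. In *IMD3* and *IMD4*, 2.72% and 2.12% of the windows are repeated. All members of these pairs that passed are uncertain as measures of 1 gene, and the part of shared reads in their ratios was not tested. Of the 289 genes compared with repeated windows 43 passed, and with all of them left out 1194 of 5449 genes passed, 597 in each direction.

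The rest of translation was described by the same lists. Initiation factors had 3 of 27 (11.1%), all with the Malaysian allele higher, the largest *TIF4632*, an eIF4G, with 1458, 1521 and 1837 for the Malaysian allele and 770, 1054 and 863 for the wine/European allele (log2 ratio 0.85 ± 0.12). Elongation and termination factors had 2 of 13 (15.4%), *TEF1* at -5.82 and the release factor *SUP35* at 0.31. Cytoplasmic aminoacyl-tRNA synthetases had 5 of 20 (25%), 2 higher and 3 lower, with the lysyl enzyme *KRS1* at -7.01 (its values are given with the alleles near 0) and the cysteinyl enzyme *CRS1* at -0.61. Ribosome biogenesis had 17 of 96 (17.7%), 6 higher and 11 lower, with a median of -0.03. Beside *NOP12*, the genes named by rule were *NOP7* (-0.69), *NOP2* (0.46) and *ENP2* (0.45). Mitochondrial ribosomal proteins had 9 of 65 (13.8%), and *MRP10* had 1367, 1355 and 1190 (Malaysian) against 2660, 2916 and 3060 (wine/European, log2 ratio -1.14 ± 0.09). Without YHL063, *TEF1* and *KRS1* alone of these lists passed, and the others had adjusted *P* between 0.0691 and 0.249 in limma.

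Chromatin, the cell cycle and DNA repair were described next. None of the 11 histone genes passed, and their log2 ratios ran from -0.30 to 0.26. Of 32 silencing and remodeling genes 8 passed (25%), 1 higher and 7 lower, with a median of -0.16. *SET2*, a histone methyltransferase, had 551, 687 and 746 for the Malaysian allele and 1360, 1202 and 1118 for the wine/European allele (log2 ratio -0.90 ± 0.15), and the SWI/SNF subunit *SWI1* 442, 571 and 367 (Malaysian) against 648, 1048 and 575 (wine/European, log2 ratio -0.69 ± 0.09). The deacetylase *HDA1* was the one with a higher Malaysian allele (log2 ratio 0.51 ± 0.11). DNA repair had 6 of 53 (11.3%), 5 higher and 1 lower. The nucleotide excision repair genes *RAD4*, with 172, 190 and 181 (Malaysian) against 69, 83 and 105 (wine/European), and *RAD16*, with 377, 446 and 379 (Malaysian) against 176, 233 and 190 (wine/European), had log2 ratios of 1.09 ± 0.16 and 1.01 ± 0.09. The mismatch repair gene *MSH3* had 134, 176 and 128 (Malaysian) against 252, 297 and 186 (wine/European, log2 ratio -0.73 ± 0.12). Cell cycle regulators had 5 of 47 (10.6%), from -0.49 for *CDC6* to 0.79 for the cyclin *CLB4*. None of these genes passed without YHL063, with adjusted *P* between 0.0873 and 0.223 from limma.

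Genes for mating and sporulation are off or low in dividing diploid cells. Of 30 mating genes 5 passed (16.7%), 3 higher and 2 lower. *STE2*, the receptor for alpha factor, had 156, 167 and 194 for the Malaysian allele and 85, 67 and 81 for the wine/European allele (log2 ratio 1.14 ± 0.15). Of 32 meiosis and sporulation genes 9 passed (28.1%), 4 higher and 5 lower, with a median of -0.05. *SPS2* was among the higher ones here too, and the log2 ratios of the list reached 4.92. *SPS4* had 188, 187 and 115 (Malaysian) against 86, 65 and 36 (wine/European, log2 ratio 1.43 ± 0.16), and *ZIP2*, of meiotic synapsis, 133, 185 and 177 (Malaysian) against 41, 76 and 113 (wine/European, log2 ratio 1.20 ± 0.23). *SMK1*, a sporulation kinase, had 65, 92 and 95 (Malaysian) against 192, 282 and 336 (wine/European, log2 ratio -1.66 ± 0.12). Both directions thus occurred, and the genes whose values are given here were low for both alleles. *SPO21*, also in the sporulation list, was not, since its wine/European values given above lie near the column medians. No gene of these lists passed without YHL063 (limma adjusted *P* from 0.0523 to 0.226).

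A few genes were near 0 for 1 allele. With a limit of at most 10 for 1 allele and at least 100 for the other in all hybrids, *KRS1* was the only gene with the Malaysian allele near 0. *KRS1* encodes the cytoplasmic lysyl-tRNA synthetase, which is essential for growth. It had 5, 6 and 8 for the Malaysian allele and 734, 1140 and 969 for the wine/European allele (log2 ratio -7.01 ± 0.18). The parents were alike, with 45, 16 and 19 in Malaysian strains and 161232 and 153611 in BC187 and RM11-1. Its hybrid-to-parent level was 43.1-fold below that of the median gene, and the cause was not tested.

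At 3 genes the wine/European allele was near 0. *TDA8*, a small gene on chromosome I, had 584, 659 and 655 for the Malaysian allele and 1, 1 and 0 for the wine/European allele (log2 ratio 8.64 ± 0.32 on the log2(value + 1) scale). *COS8*, a subtelomeric membrane protein gene, had 330, 467 and 362 (Malaysian) against 9, 5 and 8 (wine/European, log2 ratio 5.56 ± 0.30). YEL077C, a helicase-like gene in a Y′ element with 67.7% of its windows repeated, had 105, 135 and 144 (Malaysian) against 2, 3 and 4 (wine/European, log2 ratio 5.03 ± 0.25). All 3 were listed at 0 in both wine/European parents and between 235 and 1898 in the Malaysian parents. Whether the gene is absent, too different to map or not expressed in the wine/European strains was not tested. The 3 genes lie within 30 kb of a chromosome end. YEL077C missed the threshold without YHL063 (limma adjusted *P* = 0.0614), and *KRS1*, *TDA8* and *COS8* passed without each hybrid.

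Position along the chromosome was then described. Within 30 kb of a chromosome end 73 of 329 genes passed (22.2%), 44 with the Malaysian allele higher and 29 lower, and 116 of the 329 had repeated windows. Under 10 kb the numbers were 14 higher and 5 lower of 95, between 10 and 30 kb 30 higher and 24 lower of 234, between 30 and 100 kb 196 of 1069 (18.3%) and beyond 100 kb 755 of 4335 (17.4%). Chromosome XVI stood out by direction, with 25 genes higher and 58 lower of 456, while the median log2 ratio of a chromosome in a hybrid stayed between -0.04 and 0.11 on all chromosomes. The share past the threshold was 12.8% in the quartile of genes with the lowest mean value and 22.02% in the highest, and 15.1% and 20.9% in the quartiles with the lowest and highest GC content.

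Runs of at least 3 neighbouring genes past the threshold in the same direction were found at 17 places, 11 with the Malaysian alleles higher and 6 lower. Genes that were not compared were skipped in these runs and in the adjacent pairs below. The longest held 4 genes on chromosome XV (chrXV:418630-427224), *RAT1*, *RSB1*, *ETT1* and *TMC1*, with log2 ratios between 0.37 and 2.02. On chromosome I, *TDA8*, *GDH3* and *BDH2* were all higher (chrI:13363-34701, from 1.02 to 8.64), a stretch of the left end. On chromosome XII, *AYT1*, *MHT1* and *MMP1* were all lower (chrXII:14648-19707, from -2.51 to -0.63), and *MHT1* and *MMP1* act together, as methyltransferase and permease, in the use of S-methylmethionine. On chromosome XIII, the tandem phospholipase genes *PLB2* and *PLB1* were lower with *ADI1* (chrXIII:277561-284641, from -2.52 to -0.66), as were *PRM15*, *ATR2* and *CAT8* (chrXIII:822763-831329, from -2.76 to -1.37). Of adjacent pairs with both genes past the threshold, 38 of 59 convergent, 31 of 54 divergent and 59 of 105 tandem pairs had the same sign, beside 52.4% to 53.3% of all adjacent pairs. Whether counting used the strand is not given in the sources used here, so reads of overlapping neighbours cannot be told apart.

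The parents were set beside the alleles to show how far an allelic difference was also seen between whole strains. The parents were separate cultures in a separately normalized table, and 630 of 5792 genes (10.9%) differed between the populations at an adjusted *P* under 0.05 in limma. Reads of parents and hybrids were mapped to the same amended strain genomes, and the part of this shared mapping in the signs below was not tested. Of the 1026 genes past the threshold between alleles, 863 had the same sign in the parents, or 84.1% (95% Wilson interval 81.7 to 86.2, which treats genes as independent), beside 65.3% of all genes compared. Of the 230 genes with at least 2-fold differences 219 had the same sign. A total of 305 genes passed in both comparisons, 29.7% of the allelic ones and 48.4% of the parental ones, and 297 of them had the same sign. *GNP1* had -2.88 between alleles and -2.91 between parents, *GPX2* 2.23 and 2.20, and *AQY1* 3.11 and 3.64. *ZRT1* differed by -2.23 between alleles and -3.64 between parents, *MMP1* by -2.51 and -3.75, and *SUC2* by 1.79 and 1.87. *CHO2*, in contrast, had -2.20 between alleles and -0.56 between parents, and *SNQ2* 1.42 and 0.38.

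Only 8 genes passed in both comparisons with opposite signs, and they were named after their values were seen. *ARO10* had a log2 ratio of -1.35 between alleles, while the Malaysian parents had 8940, 5842 and 9848 and the wine/European parents 1360 (BC187) and 2387 (RM11-1), a log2 difference of 2.15. *ARN1*, a siderophore transporter, had 0.33 between alleles and -2.14 between parents, *ARG56*, of arginine synthesis, 0.30 and -1.71, *CIT2*, the peroxisomal citrate synthase, 0.69 and -1.01, and *COS7* 3.08 and -1.72. *AIF1*, *YCF1* and *CWP1* were the other 3, with 0.34 and -0.83, 0.33 and -0.57, and -0.79 and 1.02. At 5 of the 8 the allelic difference was under 0.70 in size, and no difference between the comparisons was tested. All 8 missed the threshold between alleles without YHL063, at adjusted *P* between 0.0632 and 0.249 in limma. The overlap of parents and alleles remained with 802 of 957 genes of the same sign when genes with repeated windows, on the file-order course or among the highest values were left out.

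**Figure D5:**
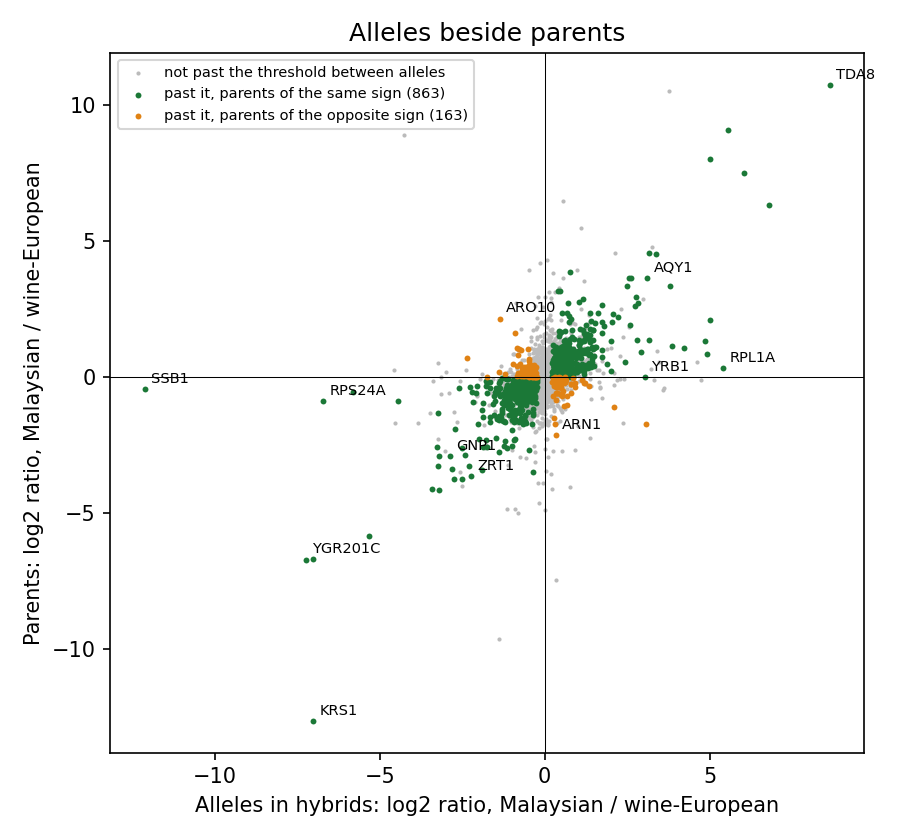
Log2 ratio of Malaysian to wine/European parents (vertical axis) against log2 ratio of Malaysian to wine/European alleles in the hybrids (horizontal axis), 1 point per gene. Green points are the 863 genes past the threshold between alleles with the same sign in the parents, orange points the 163 with the opposite sign and gray points the others. Most large allelic ratios have the same sign in the parents, and *KRS1*, *TDA8* and YGR201C lie far out on both axes, while *SSB1* and *RPS24A* lie far out on the horizontal axis only.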

How the data were processed

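RNA-seq was measured in 3 hybrids and 5 parents, 1 library each. The authors mapped unique reads without mismatches with Bowtie 0.12.7 to strain genomes amended with SNPs, for hybrids to both parental genomes joined, summed them per gene and, per their methods, normalized them with EDASeq (upper quartile, loess on GC content), which does not account for the ties and steps in the values. The deposited values are treated as a score, being normalized and rounded read counts, and no count model was run on them. Their DESeq fold changes and p-values were not used. The paired alleles were compared on log2(value + 1) with limma 3.58.1 in R 4.3.3 (terms for hybrid and allele, mean-variance trend, Benjamini-Hochberg over 5738 genes), where the study did not pair them. Deviations of the alleles of a hybrid, which come from 1 library, correlated at 0.669, 0.541 and 0.476. Of the gene IDs, 5792 were in the annotation of S288C R64 (RefSeq), from which repeated 100-base windows were found. Genes were named by rule: the 12 largest ratios in each direction (threshold passed, same sign, at least 10 in every column, no repeated window), the 3 largest in each direction with repeated windows, up to 2 in each direction per list, *URA3*, *LYS2* and *HO*, and genes with 1 allele near 0. Members of a list with a value under 10 in any column were passed over by the rule, as were those with repeated windows outside lists of paralogs. A gene outside the rule was named with its values known. Members and lists were chosen with earlier results of these data known. The fit was tested on simulated data. Other filters, pseudocounts, scalings and subsets of hybrids were tried, some of them added after seeing the data. Figures were drawn with Python 3.11.15 and matplotlib 3.10.9.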

Additional observations from a re-analysis of the deposited data

How the results depend on the processing

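With the pairing by hybrid as a replicate block left out, 270 genes passed (119 higher and 151 lower from the Malaysian allele), all among the 1026, and with parents beside alleles 90.7% had the same sign. Leaving out each hybrid in turn gave 55 to 710 genes (27 to 333 higher, 28 to 377 lower), of which 85.8% to 98.2% had the same parental sign. The lowest of these was without YHL063, and 54 of its 55 genes were among the 1026. Under the other alternatives the count lay between 757 (no mean-variance trend) and 1221 (at least 10 in every column and no repeated window). That setting, and those that left out the file-order course or the 100 highest genes, were chosen after seeing the data. Pseudocounts of 10 and 0.5 gave 1041 and 1025 genes, no filter 1042, a mean of at least 100 1037, median-ratio rescaling 1020, quantile normalization 991 and centering per hybrid 1021. No gene past the threshold changed direction under any alternative. Only median-ratio rescaling, quantile normalization and centering per hybrid could have changed it, since all of these genes had the same sign in the 3 hybrids. Of the 156 genes named by rule, 153 remained with median-ratio rescaling, 152 with quantile normalization and 137 without the trend. The number of reads behind a single value is unknown, and the study lists the fewest uniquely mapped reads for the cross of YHL065. With 1 culture per cross, technical error and differences between strains cannot be told apart.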
